A study of Homo sapiens with 13 samples.

Results

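The vacuolar proton ATPase (V-ATPase) was followed through 10 of its subunit genes, ATP6V1A, ATP6V1B2, ATP6V1C1, ATP6V1C2, ATP6V1E1, ATP6V1H, ATP6V0B, ATP6V0D1, ATP6V0E1 and ATP6V0E2. Every array probe that is not a control and carries one of these names was taken, which gave 12 probes of 34127. ATP6V1C1 and ATP6V0D1 had 2 probes each, and every other gene had 1. The V-ATPase is a rotary pump that spends ATP to move protons into lysosomes, endosomes and secretory vesicles. Its cytosolic V1 sector binds and hydrolyses ATP, and its membrane-embedded V0 sector carries the protons across. In most cell types it keeps lysosomes acid, and on the lysosomal surface it binds the Ragulator complex, through which amino acids activate the mTORC1 kinase.

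The study profiled CCRF-CEM, a cell line from a human T cell leukemia, on 13 one-colour Agilent arrays. The parental cells (CEM PA) were mock-treated with DMSO on 3 arrays and given 5 nM FK866, an inhibitor of the NAD-producing enzyme NAMPT, for 48 h on 2 arrays. CEM RES, a population selected in rising FK866 and resistant to 100 nM, was mock-treated with DMSO on 4 arrays and given 5 nM FK866 for 48 h on 4 arrays. According to the Methods CEM RES was kept in FK866, so its mock arrays are not from cells that had never met the drug, and the sources used here do not state how long the drug was out of the medium before harvest. The line is 1 selected population and not a set of independent resistant lines, so replicate spread does not cover the spread between selections. Signals are log2 of the background-corrected intensity after quantile normalization over the 13 arrays, and values of different probes are not on a common scale.

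Per array, between 26457 and 33239 of the 43118 spots that are not controls were well above background and 0 were saturated. Mock replicate 1 of CEM RES stood apart: the 75th percentile of its intensities was 536.8, against 1247.8 to 1473.6 on the other mock arrays of CEM RES, and 773 of its spots were marked as outliers, against 254 to 294. All CEM PA arrays were scanned in sessions 1 and 2 and all CEM RES arrays in session 3, so the cell line and the scan session cannot be told apart in any comparison between the lines. All 9 T cell leukemia markers found on the array (among them CD3D, CD7 and LCK) were well above background on every array. CD3E, CD3G and RAG1 were higher and CD5 and PTCRA lower in mock CEM RES than in mock CEM PA. Of 5 B cell markers, 4 were well above background on all arrays of mock CEM PA and 3 on all arrays of mock CEM RES. Of the 4 tested, 3 were lower in mock CEM RES, 2 of them by limma at an adjusted p under 0.05, and 1 was higher. CD79B differed by -1.17 on the log2 scale. The summed linear signal of the 5 B cell genes ran from 2210 to 3590 in mock CEM RES, against 3590 to 4120 in mock CEM PA. EPCAM, CDH1, COL1A1 and COL3A1, which mark epithelial cells and fibroblasts, were well above background on 0 arrays. Of the epithelial list 2 of 5 genes, and of the fibroblast list 0 of 5, were well above background on all arrays of a group. Of 5 myeloid markers 2 were, with a summed signal of 109 to 151 in mock CEM PA and 128 to 169 in mock CEM RES. The part of these marker differences in the results below was not tested.

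With FK866 for 48 h 0 of the 12 member probes were called in either line, where 1.53% of all tested probes were called in CEM PA and 0% in CEM RES. Between the lines probes of 3 of the 10 genes were called, where 47.6% of all probes were called in mock cells and 36% under FK866. ATP6V1C2, the tissue-restricted form of subunit C, and ATP6V0B, a proteolipid of the membrane sector, were higher in CEM RES. Of the 2 probes of ATP6V0D1, the d subunit of that sector, 1 was higher and the other lower, so this gene had no single direction. ATP6V1C2 stands in this count as a description only, since the filter fixed its direction (below). By limma's moderated test with an adjusted p below 0.05, 4 of 12 member probes were called in mock cells, with 3 of them higher and the other lower in CEM RES, where 47.6% of all 22751 tested probes were called (24.9% higher and 22.7% lower). Under FK866 the count was again 4 of 12, with 36% of all probes called (18% higher and 18% lower), and again 3 were higher and 1 lower. The double threshold of the Methods (unadjusted p under 0.05 and absolute log2 fold change over 0.75) was passed by 3 of 12 in mock cells, with 35.6% of all, and by 2 of 12 under FK866, with 30.7%. Without mock replicate 1 of CEM RES the mock counts were again 4 and 3. The groups did not overlap at 4 of 12 member probes in mock cells and 5 of 12 under FK866, with 48.8% and 57.8% of all probes. In such bulk samples a change in the mix of cells and in RNA per cell cannot be told apart. Only probes read well above background throughout 1 group or more were tested, and all 12 member probes were among them. ATP6V1C2 passed this filter only through the CEM RES groups, so it was bound to be higher there, and without it 3 of 11 probes were called in each comparison of the lines. The median difference of the 12 probes between mock lines was 0.05, against 0.04 over all tested probes, and under FK866 it was -0.17, against 0.06. Without ATP6V1C2 these medians were 0.02 and -0.19.

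**Figure D1:**
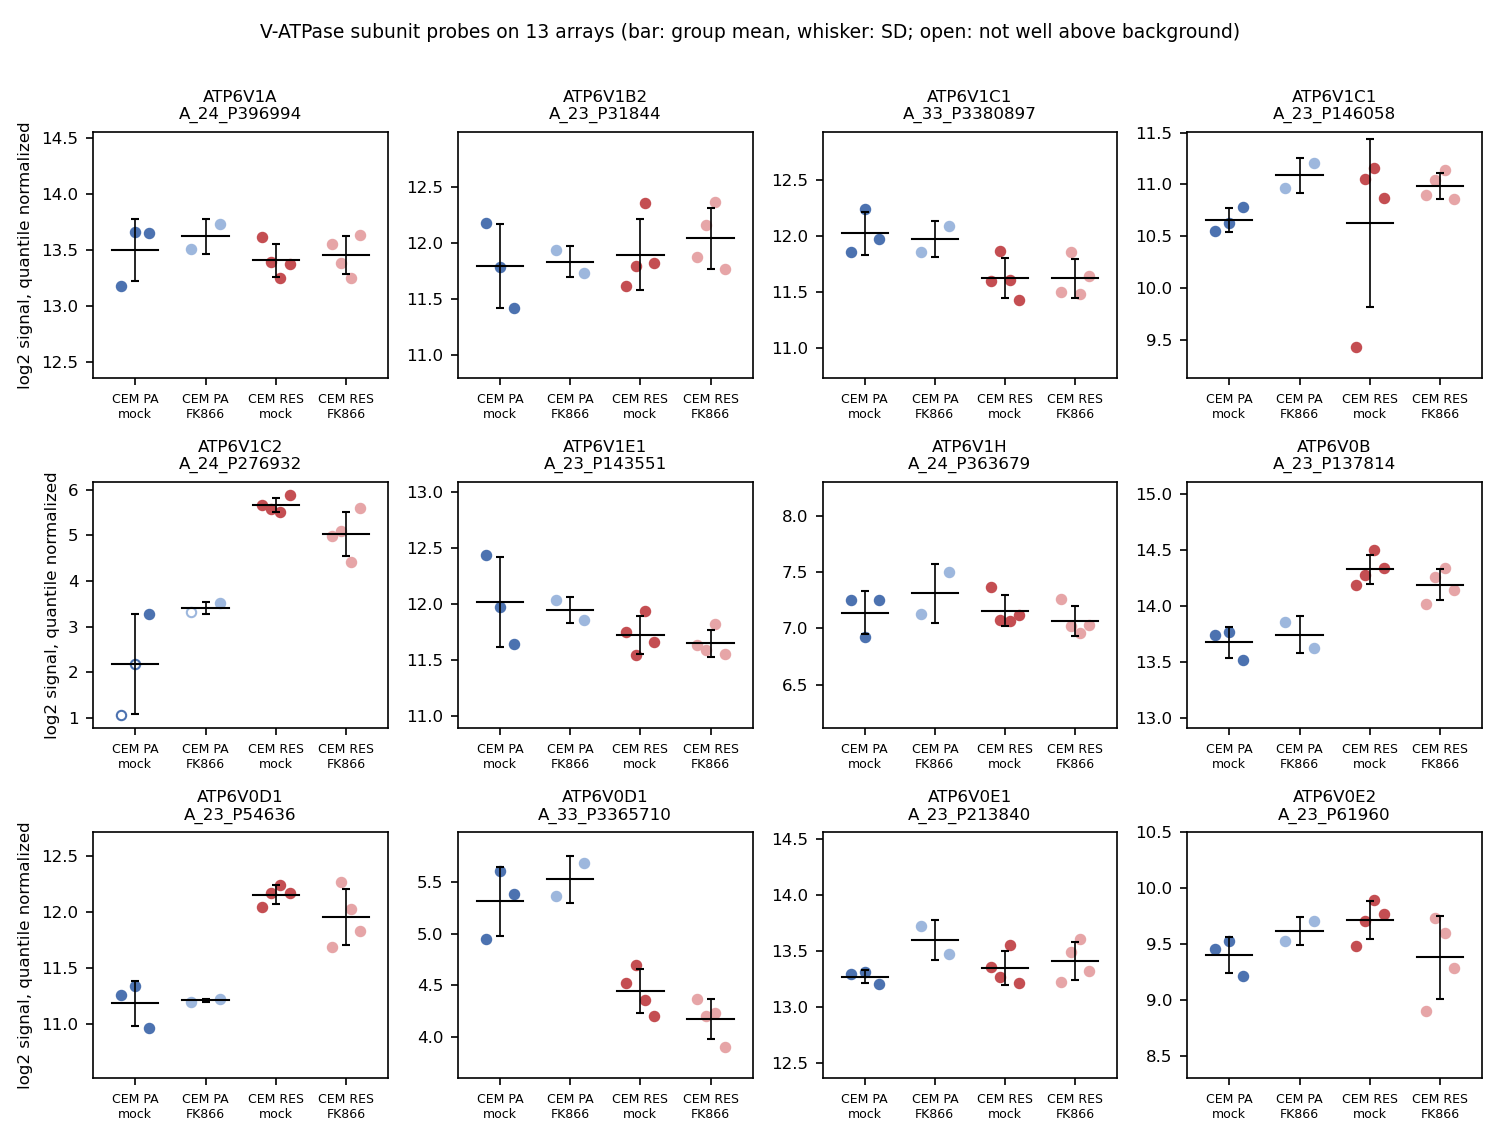
Log2 signal (vertical axis, quantile normalized, a separate range in each panel) of the 12 V-ATPase probes on the 13 arrays in the 4 groups. Points are arrays, bars group means and whiskers SD, and open points were not well above background. ATP6V1C2, ATP6V0B and both ATP6V0D1 probes separate the lines, and 1 array of mock CEM RES lies far below the rest at ATP6V1C1 A_23_P146058.

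The nucleotide-binding core of V1 did not separate the groups. ATP6V1A encodes the catalytic subunit A (probe A_24_P396994, hg19 chromosome 3, 113530539 to 113530598, plus strand). Its log2 signal was 13.18, 13.66 and 13.65 in mock CEM PA, 13.51 and 13.73 with FK866, 13.25 to 13.61 in mock CEM RES and 13.25 to 13.63 in CEM RES with FK866. All 4 groups overlapped, and the line difference in mock cells was -0.09 ± 0.16 (SE, 95% confidence interval -0.45 to 0.26). ATP6V1B2 encodes the widely expressed form of subunit B, the partner of A at the ATP sites, and its probe lies on chromosome 8. Its signal was 12.17, 11.78 and 11.42 in mock CEM PA, 11.93 and 11.73 with FK866, 11.61 to 12.35 in mock CEM RES and 11.76 to 12.36 in CEM RES with FK866. These groups overlapped as well, and the mock line difference was 0.10 ± 0.23 (SE, interval -0.39 to 0.59).

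Subunit C, which clamps the V1 sector onto the V0 sector and is released when the pump is taken apart, is encoded by the widely expressed ATP6V1C1 and by ATP6V1C2, whose expression is known from kidney, lung and other epithelia. ATP6V1C2 was read by 1 probe (A_24_P276932, hg19 chromosome 2, 10924242 to 10924301, plus strand). On the 3 mock arrays of CEM PA its log2 signal was 1.07, 2.18 and 3.28, and only the last was well above background. With FK866 the 2 CEM PA arrays gave 3.32 and 3.51, of which only the latter was well above background. Mock CEM RES gave 5.66, 5.59, 5.52 and 5.88 and CEM RES with FK866 4.98, 5.10, 4.42 and 5.61, all 8 well above background. The highest CEM PA array thus lay below the lowest CEM RES array. With CEM PA signals raised to the dimmest signal well above background on each array, ATP6V1C2 was at least 4.61-fold higher in mock CEM RES (limma adjusted p = 4.26e-05) and at least 2.47-fold higher under FK866 (adjusted p = 0.0177). Both bounds hold for the reported processing only, and both p-values are from the fit of the signals before raising. Because the probe was kept only through the CEM RES groups, these bounds and p-values describe it and do not stand as a test of its direction. The mean was 5.66 ± 0.16 (SD, n = 4) in mock CEM RES and 5.03 ± 0.49 (n = 4) in CEM RES with FK866, which overlapped, and the CEM PA groups have no order because most of their signals were not well above background. Normexp background correction with an offset of 50 shrank the measured log2 difference between the lines from 3.49 to 0.76 in mock cells and from 1.61 to 0.41 under FK866. The call under FK866 was lost without either array of CEM PA with FK866 (adjusted p = 0.113 without replicate 1 and 0.0715 without replicate 2).

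ATP6V1C1 was read by 2 probes on the same mRNA, A_23_P146058 from base 1833 and A_33_P3380897 from base 5644, both on chromosome 8. At A_33_P3380897 the signal was 11.86, 12.24 and 11.98 in mock CEM PA, 11.86 and 12.09 with FK866, 11.60, 11.87, 11.61 and 11.43 in mock CEM RES and 11.50, 11.86, 11.49 and 11.65 in CEM RES with FK866. In each treatment the highest CEM RES array reached the lowest CEM PA array and the others lay below, and the mock difference of -0.40 ± 0.16 missed the threshold (limma adjusted p = 0.0534). It passed in 7 of 27 alternatives, among them the replicate block (adjusted p = 0.0467), and the difference under FK866 was -0.35 ± 0.18 (adjusted p = 0.147). At A_23_P146058 the signal was 10.55, 10.63 and 10.78 in mock CEM PA and 10.97 and 11.21 with FK866. Mock CEM RES gave 9.43, 11.05, 11.16 and 10.87 and CEM RES with FK866 10.90, 11.04, 11.14 and 10.86. The low value was on the array of mock CEM RES that stood apart, and without it the mock line difference moved from -0.02 to 0.38 (adjusted p = 0.0561). Under FK866 its line difference was -0.10 ± 0.37 (adjusted p = 0.85). With all arrays both probes thus had differences below 0 in both treatments, none of which was called. The mock difference at A_23_P146058 was above 0 without the array that stood apart.

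Of the remaining V1 members neither was called in any comparison. ATP6V1E1 encodes subunit E of the peripheral stalks that hold the V1 sector still while the rotor turns (A_23_P143551, hg19 chromosome 22, 18080994 to 18081053, minus strand). Its signal was 12.44, 11.97 and 11.64 in mock CEM PA, 12.03 and 11.86 with FK866, 11.54 to 11.94 in mock CEM RES and 11.55 to 11.82 in CEM RES with FK866. The line difference was -0.29 ± 0.18 in mock cells and -0.30 ± 0.21 under FK866 (limma adjusted p = 0.208 and 0.285). Under FK866 the 2 CEM PA arrays lay above all 4 CEM RES arrays, in a comparison where 57.8% of all probes did not overlap. Between the lines ATP6V1E1 was the 1 member without a call whose groups did not overlap. ATP6V1H encodes subunit H, which couples ATP hydrolysis to proton flow and silences free V1, and its probe lies on chromosome 8. Its signal ran from 6.92 to 7.25 in mock CEM PA, 7.13 and 7.5 with FK866, 7.07 to 7.37 in mock CEM RES and 6.96 to 7.26 in CEM RES with FK866. All groups overlapped, and the mock line difference was 0.02 ± 0.15.

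In the V0 sector, ATP6V0B encodes the c'' proteolipid of the rotor ring that carries the protons (A_23_P137814, hg19 chromosome 1, 44443706 to 44443765, plus strand). Its log2 signal was 13.74, 13.77 and 13.52 in mock CEM PA and 13.86 and 13.63 with FK866. Mock CEM RES gave 14.19, 14.28, 14.50 and 14.34 and CEM RES with FK866 14.02, 14.26, 14.34 and 14.14. Every CEM RES array lay above every CEM PA array. ATP6V0B was 1.57-fold higher in mock CEM RES (log2 0.65 ± 0.14, limma adjusted p = 0.00237) and 1.36-fold higher under FK866 (0.44 ± 0.16, adjusted p = 0.0448). The mock call held in all 27 alternatives, and that under FK866 was lost in 13 of 27, with adjusted p up to 0.29 without replicate 2 of CEM PA with FK866.

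ATP6V0D1 encodes subunit d, which joins the rotor of V1 to the proteolipid ring, and its 2 probes moved in opposite directions. A_23_P54636 lies at base 1434 of the RefSeq mRNA (hg19 chromosome 16, 67472093 to 67472152, minus strand) and A_33_P3365710 at base 637 of a cDNA clone that the array files list under the same gene name (67491059 to 67491118, minus strand). The probes are 18906 bases apart on the genome and share no run longer than 6 bases. Which exon or intron holds the second probe was not analysed here. At A_23_P54636 the signal was 11.26, 11.34 and 10.96 in mock CEM PA, 11.20 and 11.22 with FK866, 12.04, 12.17, 12.24 and 12.17 in mock CEM RES and 11.69, 12.27, 12.03 and 11.83 in CEM RES with FK866. No CEM RES array reached down to a CEM PA array. The signal was 1.96-fold higher in mock CEM RES (log2 0.97 ± 0.16, limma adjusted p = 0.00042) and 1.68-fold higher under FK866 (0.75 ± 0.18, adjusted p = 0.00711, or 0.0585 without replicate 1 of CEM PA with FK866). At A_33_P3365710 the signal was 4.95, 5.61 and 5.39 in mock CEM PA, 5.37 and 5.69 with FK866, 4.52, 4.70, 4.36 and 4.20 in mock CEM RES and 4.37, 4.20, 4.23 and 3.90 in CEM RES with FK866, well above background on all 13 arrays. Here every CEM RES array lay below every CEM PA array. The signal was 1.83-fold lower in mock CEM RES (log2 -0.87 ± 0.19, adjusted p = 0.0028) and 2.55-fold lower under FK866 (-1.35 ± 0.22, adjusted p = 0.000661). Scaling by the 75th percentile of an array in place of quantile normalization moved the median of all probes from 0.04 to 0.17 between mock lines and from 0.06 to 0.20 under FK866. These differences were then -0.51 and -0.85 and no longer passed (adjusted p = 0.155 and 0.052). The mean of both probes differed by 0.05 between mock lines and by -0.30 under FK866, so a value for ATP6V0D1 as a whole depends on the probe.

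**Figure D2:**
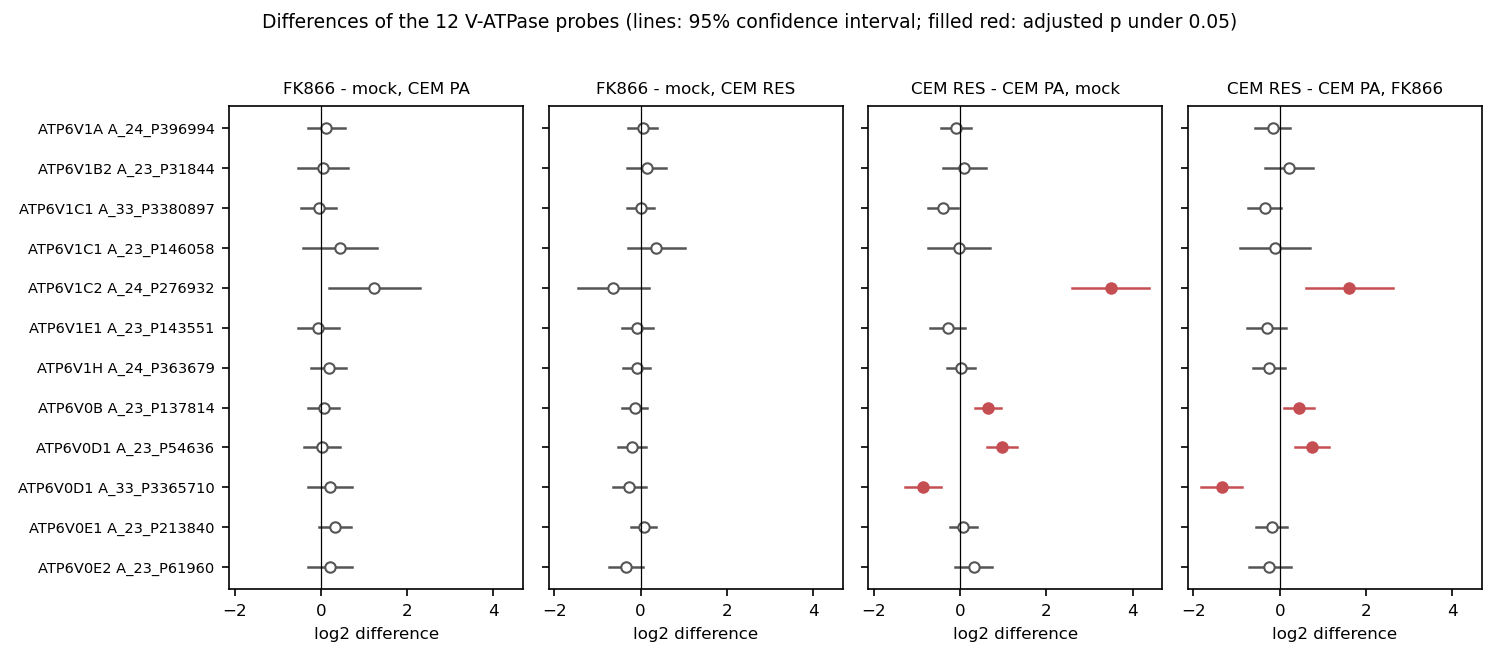
Log2 differences (horizontal axis) of the 12 V-ATPase probes in the 4 comparisons, with 95% confidence intervals as lines. Filled red points passed an adjusted p of 0.05, which holds for 0 probes in both FK866 panels and for the same 4 probes in both panels between the lines. Between the lines 47.6% of all probes passed in mock cells and 36% under FK866. ATP6V1C2, among the 4, was kept only through CEM RES, so its point is no test of direction. Most of its CEM PA signals were not well above background, so its FK866 point in CEM PA is no measured size.

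Subunit e, a small hydrophobic protein of V0, is encoded by the widely expressed ATP6V0E1 and by its paralog ATP6V0E2. The probe of ATP6V0E1 crosses an intron (A_23_P213840, hg19 chromosome 5, from 172421786 to 172447260, plus strand). Its signal was 13.29, 13.31 and 13.20 in mock CEM PA, 13.72 and 13.47 with FK866, 13.35, 13.26, 13.55 and 13.21 in mock CEM RES and 13.22, 13.49, 13.60 and 13.32 in CEM RES with FK866. Both FK866 arrays of CEM PA lay above its mock arrays, and the lines overlapped in mock cells (difference 0.07 ± 0.14). The probe of ATP6V0E2 (A_23_P61960, hg19 chromosome 7, 149576953 to 149577012, plus strand) gave 9.46, 9.53 and 9.22 in mock CEM PA, 9.53 and 9.71 with FK866, 9.49, 9.71, 9.90 and 9.77 in mock CEM RES and 8.91, 9.74, 9.60 and 9.29 in CEM RES with FK866. The lines overlapped in both treatments, with differences of 0.31 ± 0.20 in mock cells and -0.24 ± 0.22 under FK866 (limma adjusted p = 0.211 and 0.435).

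Whether the paralogs of a pair changed unequally was asked from the ratio of their probes on each array. The probes share at most 7 bases in a row between ATP6V1C2 and ATP6V1C1 A_33_P3380897 and 6 between ATP6V0E2 and ATP6V0E1. The log2 ratio of ATP6V1C2 to ATP6V1C1 was higher on every CEM RES array than on any CEM PA array. No size or test is given for this, since ATP6V1C2 was not well above background on 3 of 5 CEM PA arrays and was kept only through CEM RES. The ratio of ATP6V0E2 to ATP6V0E1 differed between the lines by 0.24 in mock cells and -0.05 under FK866 (mean 0.09, exact permutation test of line labels within treatments, two-sided, p = 0.455). With FK866 in CEM RES the ratios moved by -0.63 and -0.40, and neither passed (exact permutation test, p = 0.0857 and 0.0571, adjusted p = 0.0857 for both, where 0.0286 is the smallest possible). In CEM PA the ratio of ATP6V0E2 to ATP6V0E1 moved by -0.11, which was not tested.

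**Figure D3:**
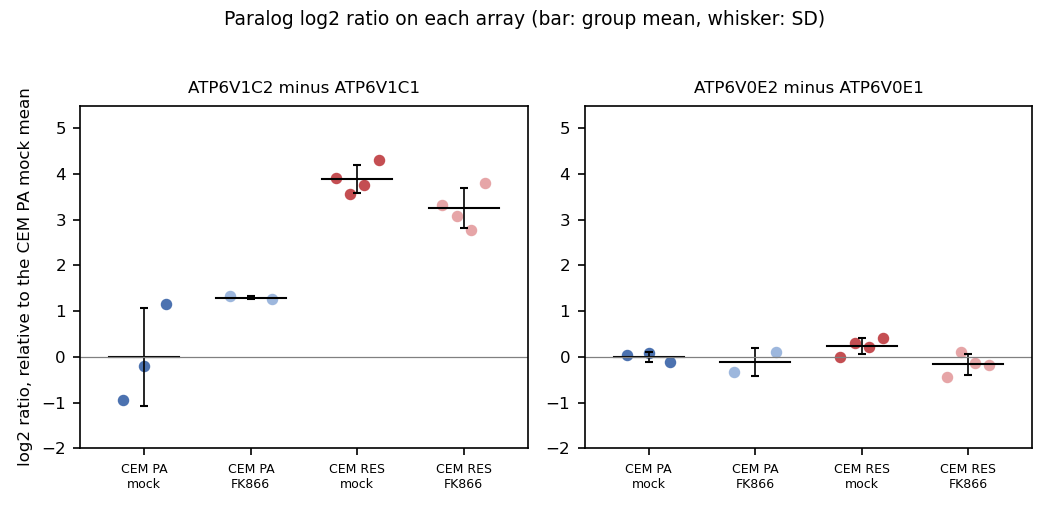
Log2 ratio of the paralog probes on each array (vertical axis), relative to the mean of mock CEM PA, for ATP6V1C2 over ATP6V1C1 and ATP6V0E2 over ATP6V0E1. Points are arrays, bars group means and whiskers SD, and 3 of the 5 CEM PA points in the left panel hold an ATP6V1C2 signal not well above background. All CEM RES arrays lie above all CEM PA arrays on the left, and the mock line shift on the right is 0.24.

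The start regions of the genes that differed between the lines are shown because the palindrome CACGTG is the core of the site bound by TFEB and TFE3, which switch on lysosomal genes. RefSeq start regions on GRCh38.p14, from 250 bases before to 50 bases after the start, matched 5 of the 10 genes with 8 starts. CACGTG, which reads the same on both strands, occurred in those of ATP6V0B, ATP6V0D1 and ATP6V0E2, 3 of 5 genes and 4 of 8 starts, and in 7.26% of all 35116 start regions of this length. CACGTG holds a CG, and the member start regions held a median of 25 CG, against 14 over all. The part of this in the count was not tested. The longer CLEAR element, this palindrome with GT before and AC after it, occurred in 0 of the 5 and in 0.353% of all. ATP6V0B held the 6 letters beginning 57 and 39 bases before its start, ATP6V0D1 beginning 59 bases before and ATP6V0E2 beginning 68 bases before its first start. Its second start holds the same letters at the same place, so this site is counted for both starts, and the last one holds none. ATP6V1C2 and ATP6V1E1 held none in this window. ATP6V0E2 is shown because it holds the letters and did not pass the test between the lines. A match of letters is a description and not a binding site. The 250 bases before the start, for ATP6V0E2 before the first of its starts, follow, 5′ to 3′ on the gene's strand, with CACGTG in capitals.
ATP6V0B, chr1:43974710-43974959, plus strand: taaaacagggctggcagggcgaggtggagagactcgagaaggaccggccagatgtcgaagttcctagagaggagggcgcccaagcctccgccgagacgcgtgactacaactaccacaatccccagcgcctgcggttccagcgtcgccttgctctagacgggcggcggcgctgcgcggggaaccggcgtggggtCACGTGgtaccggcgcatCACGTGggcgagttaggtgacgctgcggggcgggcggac
ATP6V0D1, chr16:67481158-67481407, minus strand: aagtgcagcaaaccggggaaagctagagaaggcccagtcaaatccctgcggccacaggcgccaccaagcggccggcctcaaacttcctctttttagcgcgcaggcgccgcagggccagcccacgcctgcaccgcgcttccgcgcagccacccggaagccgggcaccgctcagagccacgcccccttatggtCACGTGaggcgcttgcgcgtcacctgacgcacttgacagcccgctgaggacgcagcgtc
ATP6V0E2, chr7:149872714-149872963, plus strand: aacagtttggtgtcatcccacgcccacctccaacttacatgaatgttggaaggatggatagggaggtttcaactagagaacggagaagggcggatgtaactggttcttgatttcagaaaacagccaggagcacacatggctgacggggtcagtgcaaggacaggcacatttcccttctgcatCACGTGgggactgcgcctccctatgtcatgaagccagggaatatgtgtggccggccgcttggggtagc
ATP6V1C2, chr2:10721380-10721629, plus strand: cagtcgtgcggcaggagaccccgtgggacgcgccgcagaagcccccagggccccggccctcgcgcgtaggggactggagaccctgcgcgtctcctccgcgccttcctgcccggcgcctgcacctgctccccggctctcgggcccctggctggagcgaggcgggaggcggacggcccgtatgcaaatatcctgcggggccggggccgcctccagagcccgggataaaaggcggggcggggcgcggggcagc

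Exposure to FK866 was asked about in each line. In CEM PA 0 of 12 member probes were called by limma at an adjusted p under 0.05, with 1.53% of all probes called. At an unadjusted p under 0.05 the count was 1, with 14.4% of all probes, and the double threshold was passed by the same probe, with 6.69% of all. That probe was ATP6V1C2, for which no fold is given because neither CEM PA group was well above background on all arrays (adjusted p = 0.262). With the replicate number as a block its adjusted p was 0.0267, while the probes called in all rose from 348 to 1218. The other 11 probes differed by -0.07 to 0.44. ATP6V1C1 A_23_P146058 gave the largest of these, 0.44 ± 0.39 (95% confidence interval -0.41 to 1.30), and ATP6V0E1 0.32 ± 0.17 (interval -0.05 to 0.70, adjusted p = 0.425). With ATP6V1C2 these were the 3 of 12 members whose groups did not overlap, where 34.8% of all probes did not. Within scan sessions ATP6V0E1 was higher with FK866 by 0.43 in session 1 and 0.21 in session 2, each session holding 1 FK866 array.

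In CEM RES 0 of 12 member probes were called and 0 passed at an unadjusted p under 0.05, with 0% and 5.15% of all probes, and differences ran from -0.64 to 0.36. The double threshold was passed by 0 of 12 members, with 1.3% of all probes. The groups overlapped at all 12 probes, and failed to at 2.91% of all probes. The lowest was ATP6V1C2, -0.64 ± 0.38 (interval -1.46 to 0.19, adjusted p = 0.95), followed by ATP6V0E2, -0.33 ± 0.18 (interval -0.73 to 0.06, adjusted p = 0.95). On slide 5 these differences were -1 and -0.58 and on slide 6 -0.27 and -0.08. For ATP6V1A the interval was -0.28 to 0.38 and for ATP6V0B -0.42 to 0.14. The difference between the responses of both lines passed for 0 of 12 probes, with 0.413% of all probes called, and for 1 of 12 at an unadjusted p under 0.05, with 12.1% of all. The same probe alone passed the double threshold, with 8.03% of all. It was again ATP6V1C2 (adjusted p = 0.245, and 0.0332 with the replicate block, where 486 probes were called in place of 94).

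The other V-ATPase genes were read from 1 probe a gene, the brightest one tested. Of 15 further subunit and accessory genes on the array 12 were tested, and the probes of ATP6V1B1, ATP6V1G3 and ATP6V0D2, tissue-restricted isoforms, were well above background on 0 arrays. In mock cells 1 was higher and 3 were lower in CEM RES, where 24.9% and 22.7% of all probes were. ATP6V1F, a rotor subunit, was higher by 0.66 ± 0.14 (limma adjusted p = 0.00263). ATP6V1D, the central rotor shaft, differed by -0.77 ± 0.12 (adjusted p = 0.000299), ATP6V1G2, a stalk isoform, by -0.63 ± 0.20 (0.0189) and ATP6V0A4, an isoform of the membrane subunit a known from kidney, by -1.56 ± 0.42 (0.00906). Under FK866 ATP6V1E2 (0.51, lost in 4 of 27 alternatives) and ATP6V1F (0.45, lost in 17 of 27, adjusted p = 0.0621 with the replicate block) were higher. ATP6V1D (-0.94), ATP6V0A4 (-2, lost in 1 of 27) and TCIRG1 (-0.60, lost in 11 of 27, adjusted p = 0.0963 with that block), the subunit a isoform of osteoclasts, were lower. These were 2 higher and 3 lower, where 18% of all probes were called each way. FK866 called 0 of 12 in either line, where 1.53% of all probes were called in CEM PA and 0% in CEM RES.

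Of 10 assembly and regulatory genes, 1 was called with FK866 in CEM PA, where 1.53% of all probes were. TBC1D24, a TLDc-domain protein whose relatives bind the V-ATPase, was at least 2.45-fold higher (adjusted p = 0.0333, lost in 10 of 26 alternatives), with 2 of 3 mock arrays well above background. Between mock lines TBC1D24 was at least 3.99-fold higher in CEM RES (adjusted p = 2.87e-05) and WDR7, a subunit of the RAVE-like assembly complex, was higher by 0.39, while DMXL1, of the same complex, and CCDC115, an assembly factor, differed by -0.53 and -0.42. These calls were lost in 6 of 27 alternatives for WDR7, in 12 for DMXL1 (adjusted p = 0.0527 with the replicate block) and in 17 for CCDC115. Both TBC1D24 bounds hold for the reported processing only. Over the alternatives with all arrays its log2 difference ran from 0.44 to 1.33 with FK866 in CEM PA. Between mock lines it ran from 0.80 to 2.33. Under FK866 WDR7 (0.51, lost in 2 of 27 alternatives) and NCOA7 (0.81, lost in 5 of 27), another TLDc-domain protein, were higher. A second CCDC115 probe differed by -1.43 between mock lines (limma adjusted p = 0.0072). Of 10 Ragulator and Rag genes, SLC38A9, the lysosomal arginine sensor, was higher by 0.46 (lost in 7 of 27 alternatives) and 3 were lower, LAMTOR1 (-1.23), LAMTOR3 (-0.81) and RRAGC (-0.73). Of 24 lysosomal genes tested 3 were higher, among them CTSA (0.88) and PSAP (0.74, lost in 4 of 27 alternatives), and 6 were lower, among them the membrane protein LAMP1 (-1.62) and the hydrolases GAA (-1.92) and HEXA (-0.61). Second probes of CTSA, PSAP and LAMTOR3 gave 0.14, -0.07 and -0.42 between mock lines and were not called. Under FK866 the Ragulator and Rag genes again gave 1 higher and 3 lower, and the lysosomal genes 3 higher and 7 lower. Over all probes 47.6% were called between mock lines and 36% under FK866. Ragulator and Rag genes gave 4 of 10 in each, and lysosomal genes 9 of 24 in mock cells and 10 of 24 under FK866. Assembly and regulatory genes gave 2 higher and 2 lower of 10 in mock cells and 2 higher and 0 lower under FK866. FK866 itself called 0 Ragulator, Rag or lysosomal genes in either line, where 1.53% of all probes were called in CEM PA and 0% in CEM RES.

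The mitochondrial F-type ATPase is built on the same rotary plan and makes ATP instead of spending it. Of its 16 nuclear genes 11 were higher and 0 lower in mock CEM RES, where 24.9% and 22.7% of all probes were, with a median difference of 0.59 on the log2 scale, against 0.09 for the 10 V-ATPase members read the same way and 0.04 over all probes. ATP5D (1.67), ATP5G1 (1.53) and ATP5J2 (1.24) differed most. Under FK866 7 were higher and 0 lower, where 18% of all probes were called each way, with a median of 0.53. Whether the lists differ from each other was not tested.

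**Figure D4:**
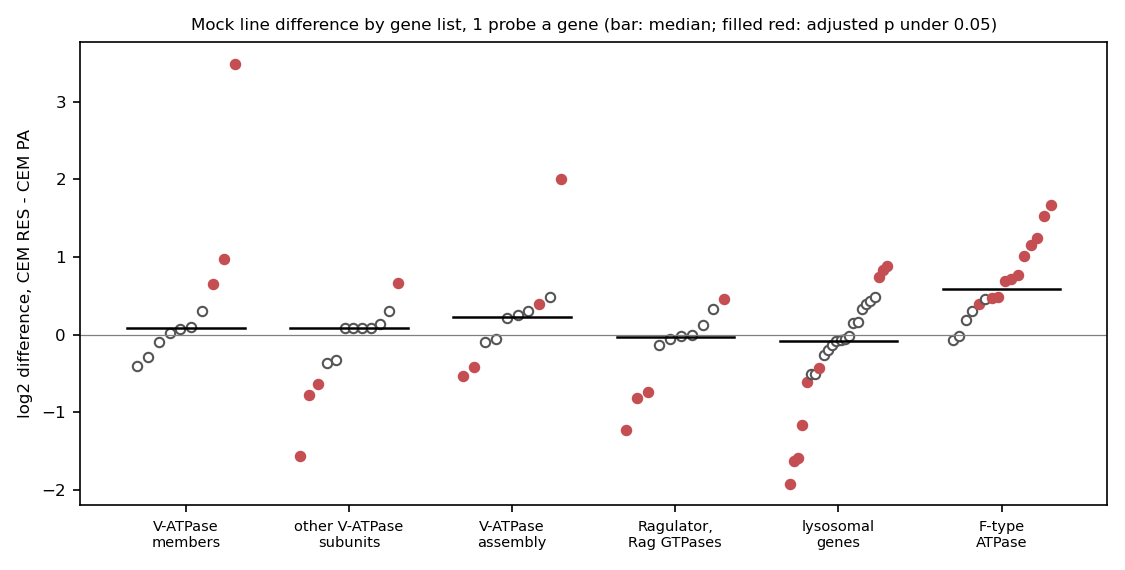
Log2 difference of mock CEM RES and mock CEM PA (vertical axis) for each gene of 6 lists, sorted within a list, with the list median as a bar. Filled red points passed an adjusted p of 0.05. The medians are 0.09 for the V-ATPase members, 0.09 for the other subunits and 0.59 for the F-type ATPase.

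Among the 5 probes whose signals ran most like ATP6V1C2 over the 13 arrays, of 17277 probes of other named genes, were those of KRTCAP2 (Pearson r = 0.977), MT2A (0.971), CPT1A (0.97) and ALMS1 (0.97). These 4 were higher in mock CEM RES, by 0.94 to 3.14 on the log2 scale. They were picked for running like ATP6V1C2, which was higher in CEM RES, so their direction was fixed by the choice. Most CEM PA signals of ATP6V1C2 were not well above background, which limits what these correlations show. The arrays share the split by line and scan session, across which 47.6% of all probes were called in mock cells.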

How the data were processed

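Total RNA of both CCRF-CEM lines, with DMSO or FK866, was hybridized to 13 one-colour Agilent arrays. As deposited, each array has the spot intensity written by Feature Extraction (10.7.3.1 in the file headers, 10.7.7.1 in the submitters' processing notes), background-corrected and not normalized between arrays, and the authors added log2 values after quantile normalization, with a median of 5.37 in every column. The tests start from the intensity, and the deposited log2 values were an alternative.

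Control spots were removed, spots marked as outliers were set to missing, and log2 intensities were quantile normalized and averaged over spots of a probe with no pseudocount. Probes read well above background throughout 1 group or more were kept, 22751 of 34127 probes. The 4 groups were fitted in one limma 3.58.1 model in R 4.3.3 (moderated test, two-sided, prior degrees of freedom 3.25), with Benjamini-Hochberg adjustment over all kept probes. A lower bound raises signals of a group not well above background on all its arrays to the dimmest signal well above background on the array. The p-value beside a bound is from the fit of the signals before raising. Genes are named as in the array files, and all 10 members' names are current symbols. Probe positions are on hg19. Start regions are from RefSeq on GRCh38.p14. Scripts ran in Python 3.11.15 with numpy 2.4.6, pandas 2.3.3 and matplotlib 3.10.9, and the fit was tested on simulated data.

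Replicates are biological according to the labels. Precision is limited by how many arrays there are and how bright a probe is, since there are no counts. The correlation of deviations from group means between a mock and an FK866 array with the same replicate number was 0.353 and 0.46 in CEM PA and 0.199 to 0.474 in CEM RES, so the number was also used as a block. In CEM PA these arrays also shared a scan session, so replicate number and session cannot be told apart in its correlations. The deviations of its 2 FK866 arrays are opposite by construction. The members, lists and comparisons were chosen with earlier results of these data known. Named are all member probes, up to 5 called genes per direction and comparison from every other list, and the 5 probes most correlated with the member that differed most between mock lines, of which some genes are not reported here. The study's other assays were not analysed here. The alternatives comprised 75th percentile scaling, normexp (offset 50), no filter, a filter on all 13 arrays, outlier spots kept, 1 probe or the mean of probes per gene, the deposited table, fits of only the compared groups, replicate, slide or scan session as a block, array weights, an intensity trend, and each array left out.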

Additional observations from a re-analysis of the deposited data

Results flagged for a closer look

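Over the 24 groups of 4 arrays tested, 2 for each of the 12 member probes, 1 value stood apart from its group by a Dixon test at the 95% level, and chance gives about 1 such group in 20. It was ATP6V1C1 A_23_P146058 on mock replicate 1 of CEM RES, with a log2 signal of 9.43 against 10.87 to 11.16 on the other 3 arrays of its group (gap over range 0.83). The same array had the lowest 75th percentile of intensities, and the part of this in the value was not tested.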

How the results depend on the processing

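Settings were changed one at a time over 25 to 27 alternatives per member probe and 17 per paralog ratio. The called line difference of ATP6V0B in mock cells kept direction and call in each of them. For the other results the cause of a change was not tested. The number and brightness of arrays limit what can be seen, above all at ATP6V1C2 in CEM PA, and CEM PA with FK866 had only 2 arrays. Arrays of equal replicate number deviated together, which in CEM PA cannot be told apart from a shared scan session. The replicate block changed 3 calls of member probes, ATP6V1C2 with FK866 in CEM PA (limma adjusted p = 0.0267, with no size because of its dim CEM PA signals), its difference of responses (adjusted p = 0.0332) and ATP6V1C1 A_33_P3380897 between mock lines (-0.40, adjusted p = 0.0467). It ended 3 calls between lines of other named genes, ATP6V1F (0.40) and TCIRG1 (-0.49) under FK866 and DMXL1 in mock cells (-0.53, adjusted p = 0.0527), and changed no other call.

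Probes called with FK866 in CEM PA, 348 in the reported analysis, numbered 566 with normexp, 191 with no filter, 90 with 1 probe per gene, 43 with the mean of probes, 3 with only the compared groups, 1218 with the replicate block (1 of them a member) and 1257 with array weights, and 32 to 384 when 1 array was left out. Those past the double threshold, 1523, numbered 662, 962 and 952 with normexp, 1 probe per gene and the mean of probes, and 1435 to 1905 with an array left out. The 1 member past it became 0 with 75th percentile scaling, normexp, the filter on all arrays or only the compared groups, and was 0 to 1 with an array left out. In CEM RES calls numbered 0 to 3 with an array left out. There the 295 past the double threshold became 45 with normexp, 643 with no filter, 98 with the filter on all arrays and 188 with array weights, and 139 to 607 with an array left out. Between mock lines the double threshold gave 5090 probes with normexp, and the mean of probes left 2 member genes called and 1 past the double threshold, which was 2 to 3 with an array left out. Under FK866 the 8186 calls between the lines became 4189 to 8695 with an array left out, and the 4 member calls became 1 without replicate 1 of CEM PA with FK866, 2 without its replicate 2 (range 1 to 4), and 2 with 75th percentile scaling or the mean of probes. The double threshold there gave 4258 with normexp, and its 2 members became 0 with normexp and 1 with the filter on all arrays, 1 probe per gene or the mean of probes, and 2 to 3 with an array left out. For the difference of responses the 94 calls became 169 with normexp, 56 with no filter, 23 with 1 probe per gene, 7 with the mean of probes, 486 with the replicate block (1 of them a member) and 287 with array weights, and 10 to 140 with an array left out. The 1828 past the double threshold became 1062, 1186 and 1165 with normexp, 1 probe per gene and the mean of probes, 1476 to 2198 with an array left out, and the 1 member became 0 with normexp or the filter on all arrays. Scaling to the 75th percentile gave 6372 higher and 4390 lower calls between mock lines in place of 5667 and 5169, and 5321 and 3608 under FK866 in place of 4099 and 4087.

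Signs turned as follows, and of the called probes only those of ATP6V0D1 did, when the mean of its 2 probes was taken. With FK866 in CEM PA, ATP6V1B2 gave -0.14 with the replicate block and -0.03 with the session block, ATP6V1C1 A_33_P3380897 0.01 with 75th percentile scaling and 0.19 with the mean of probes, ATP6V0B -0.01 with the replicate block, and ATP6V0D1 A_23_P54636 -0.09 with it and -0.03 with array weights. In CEM RES, ATP6V1C1 A_33_P3380897 gave 0.02 with 75th percentile scaling and with the deposited table, 0.01 with outlier spots kept, 0.18 with the mean of probes and 0.07 with array weights. Between mock lines ATP6V1B2 gave 0.00 with normexp, ATP6V1C1 A_23_P146058 0.13 with array weights, ATP6V1H -0.04 with normexp and -0.09 with the deposited table, and ATP6V0D1 A_33_P3365710 0.05 with the mean of probes. Under FK866 ATP6V0D1 A_23_P54636 gave -0.30 with that mean. For the difference of responses ATP6V1A gave 0.05 with array weights, ATP6V1C1 A_33_P3380897 -0.02 with normexp and with the mean of probes, ATP6V1C1 A_23_P146058 0.11 with normexp, and ATP6V1E1 0.03 with normexp, 0.00 with outlier spots kept, 0.04 with the deposited table, and 0.18, 0.01 and 0.07 with replicate, slide and session blocks.

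With 1 array left out, signs turned within these ranges. In CEM PA with FK866 they were -0.04 to 0.23 for ATP6V1A, -0.14 to 0.23 for ATP6V1B2, -0.17 to 0.06 for ATP6V1C1 A_33_P3380897, -0.26 to 0.14 for ATP6V1E1, 0.00 to 0.36 for ATP6V1H, -0.05 to 0.19 for ATP6V0B and -0.09 to 0.10 for ATP6V0D1 A_23_P54636. In CEM RES they were -0.01 to 0.12 for ATP6V1A, -0.08 to 0.08 for ATP6V1C1 A_33_P3380897 and -0.04 to 0.54 for A_23_P146058. Between mock lines they were -0.08 to 0.29 for ATP6V1B2, -0.20 to 0.38 for ATP6V1C1 A_23_P146058 and -0.09 to 0.08 for ATP6V1H, and under FK866 -0.22 to 0.01 for ATP6V1C1 A_23_P146058. For the difference of responses they were -0.18 to 0.09 for ATP6V1A, -0.08 to 0.29 for ATP6V1B2, -0.07 to 0.17 for ATP6V1C1 A_33_P3380897, -0.48 to 0.09 for A_23_P146058 and -0.22 to 0.18 for ATP6V1E1, and for the ratio of ATP6V0E2 to ATP6V0E1 between lines -0.01 to 0.20.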
